A study of Mus musculus with 12 samples.

Results

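The genes described here are 9 that the liver is known to switch on during fasting, namely Angptl4, Pdk4, Creb3l3, Fgf21, Plin2, Vnn1, Acot1, Cyp4a10 and Cyp4a14. They were chosen by name as targets of PPAR alpha and of CREBH, with earlier results of these data known. Pairing Ensembl identifiers with mouse symbols found them in the table. They are 9 of the 16346 genes in the table, and all 9 passed the filter of a mean normalized count of at least 10, as did 12366 genes in all. PPAR alpha is a nuclear receptor that senses fatty acids, binds DNA as a pair with a retinoid X receptor, and drives fatty acid oxidation and ketone production in the fasted liver. CREBH, the product of Creb3l3, is a transcription factor held in the membrane of the endoplasmic reticulum until it is cut free, and it acts with PPAR alpha on genes such as Fgf21. Feeding lowers fatty acid supply to the liver, and sugar in the diet acts on some of the same genes through other factors, including ChREBP, a carbohydrate-sensing factor that binds sites built from the E-box CACGTG.

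RNA was sequenced from the livers of 12 C57BL6J mice aged 12 weeks, with 2 mice in each of 6 groups. Control mice carried the floxed allele alone (Med13fl/fl), and MED13-LKO mice also carried Cre under the albumin promoter, which acts in hepatocytes, so that both genotypes shared the floxed Med13 allele. Mice of each genotype were fasted overnight for 16 h, or were refed for 4 h with normal chow and drinking water that held 30% sucrose or 30% fructose. The fasted mice were killed earlier in the day than the fed mice, so feeding and the hour of sampling cannot be told apart.

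The deposited normalized counts summed to 17309200 to 18738600 per library labelled MED13-LKO and to 21062200 to 24152900 per control, without overlap. The medians were 17803100 and 22231000. Reads counted on genes were estimated at 16056800 to 24237200 over all libraries. Med13 RNA did not fall where the labels say MED13-LKO, and in those livers its normalized count ran from 646 to 1055 with a median of 763, against 578 to 796 with a median of 673 in controls. A transcript that has lost an exon can still be counted, and reads by exon were not analysed here. The labelled tissue was checked against the hepatocyte markers Alb, Ttr, Apoa1, Tat and Cps1, of which 4 of 5 were called lower in the libraries labelled MED13-LKO (summed level 1619650 to 2007770, against 2150620 to 2885790). Of 5 markers of sinusoidal endothelium, 3 were called higher (3471 to 4743 summed, against 3036 to 3528), and of 5 Kupffer cell markers 1 was called higher (3802 to 5039, against 2909 to 4042). The median sum went the other way for stellate cell markers (5258, against 5848 in controls) and for cholangiocyte markers (637, against 787). The hepatocyte marker sums are part of the normalized totals, which were also lower in the libraries labelled MED13-LKO. In bulk liver, fewer cells of a type and less RNA per cell cannot be told apart. Among genes that are higher in male liver, 6 of 8 were called lower in the libraries labelled MED13-LKO, and of 4 tested female-biased genes 1 was called higher, Cyp2a4, with a median of 4644 against 17.2 in controls, while the Y-linked Ddx3y lay between 1450 and 1865 in all 12 libraries. These markers moved with genotype in the same libraries as the genes below, and their part in the results was not tested. The adipocyte markers summed to at most 5.97 in 11 libraries and to 110 in control fructose mouse 1, and 3 of the 5 were in the table, with Cfd at 77.2 and Adipoq at 22.5 in that library.

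The 9 genes did not follow feeding or genotype as a block. Averaged over both genotypes and both sugars, feeding lowered Angptl4, Pdk4, Creb3l3 and Acot1 and raised Fgf21, while Plin2, Vnn1, Cyp4a10 and Cyp4a14 did not pass the test. Thus 5 of 9 were called, where 21.8% of all tested genes were (10.7% higher and 11.0% lower). Averaged over the diets, Acot1, Fgf21 and Vnn1 were higher in the libraries labelled MED13-LKO and none of the 9 was called lower, so that 3 of 9 were called where 25.3% of tested genes were, 12.1% higher and 13.2% lower. A gene was called when its adjusted p was under 0.05 in limma with Benjamini-Hochberg adjustment over all 12366 genes, fitted to log2(normalized count + 1). Changes are given on that log2 scale, with standard errors (SE) that rest on the spread between mice over all 6 groups.

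**Figure D1:**
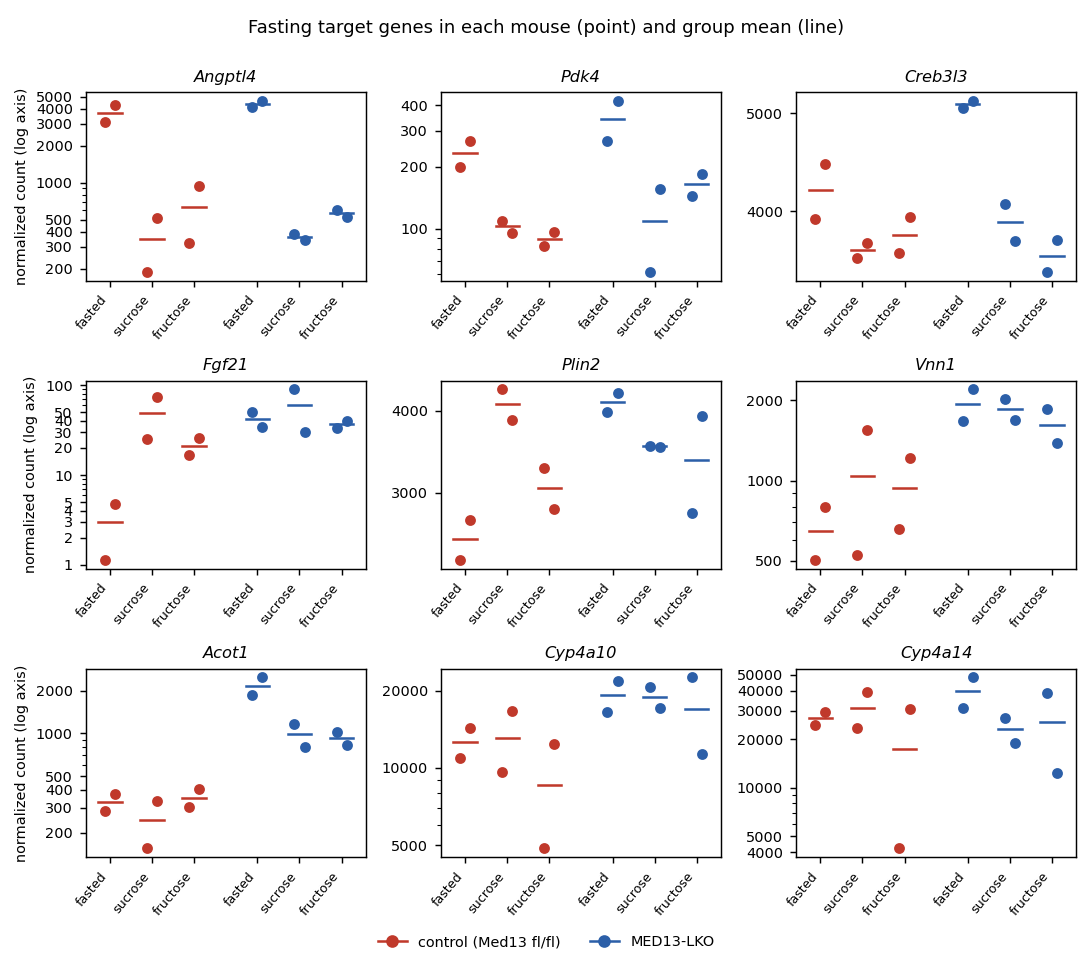
Normalized count (log axis, scale differs between panels) of each gene in each of 12 mice, by diet and genotype, where points are mice and short lines are group means of 2 mice. Angptl4 and Pdk4 in every fed mouse lie below every fasted mouse, Acot1 in every library labelled MED13-LKO lies above every control, and Fgf21 is lowest in the 2 fasted controls at 1.13 and 4.82.

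Angptl4 encodes a secreted inhibitor of lipoprotein lipase, and it fell most on feeding of the 9 genes. Fasted controls had 3087 and 4281 normalized counts of it, sucrose-fed controls 187 and 514, and fructose-fed controls 323 and 947. The MED13-LKO-labelled livers had 4119 and 4609 when fasted, 385 and 342 after sucrose, and 596 and 529 after fructose. Every fed mouse lay below every fasted mouse, a separation that Pdk4 shared and that 4.79% of tested genes showed in that direction. The change with sucrose was -3.54 in controls (SE 0.50) and -3.58 in MED13-LKO, to 0.0857 and 0.0835 of the fasted level, with adjusted p of 0.00272 and 0.00396 in limma. The change with fructose was -2.71 and -2.95, with adjusted p of 0.015 and 0.0101.

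Genotype gave Angptl4 no change that passed the test in any diet, with 0.26 when fasted, 0.22 with sucrose and 0.02 with fructose. With 1 library left out, the change with sucrose ranged from -0.50 to 0.95 and that with fructose from -0.75 to 0.80. The 95% interval of the change averaged over diets, -0.47 to 0.81 around 0.17, leaves room for a change of up to 0.81, and the sign turned without control sucrose mouse 1 (-0.07) or control fructose mouse 1 (-0.09). The call for fructose in controls was lost without control fasted mouse 2 (-2.48, adjusted p = 0.113 in limma), without control fructose mouse 1 (-1.94, adjusted p = 0.0649) and when the 4 compared libraries were fitted alone (adjusted p = 0.139). In MED13-LKO the call for fructose was lost without fasted mouse 1 (adjusted p = 0.0529), fasted mouse 2 (0.0704) or fructose mouse 2 (0.0969), at changes of -3.04, -2.87 and -2.87. The change averaged over genotypes and sugars, -3.20 (SE 0.30, adjusted p = 0.00012 in limma), kept its call without any 1 of the 12 libraries.

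Pdk4 encodes a kinase that turns off pyruvate dehydrogenase and so spares glucose. Fasted controls had 199 and 268 normalized counts, against 110 and 95.7 after sucrose and 82.5 and 96.6 after fructose. Livers labelled MED13-LKO had 267 and 419 in the fasted state, 61.6 and 156 after sucrose, and 145 and 185 after fructose. All 8 fed mice were below all 4 fasted mice. The change averaged over genotypes and sugars was -1.33 (SE 0.23, adjusted p = 0.0033 in limma), to 0.398 of the fasted level, and it was called without any 1 library.

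Taken singly, the changes of Pdk4 with feeding were -1.17 with sucrose and -1.36 with fructose in controls, and -1.76 and -1.02 in MED13-LKO. Of these 4, the limma test passed for sucrose in MED13-LKO (adjusted p = 0.0269) and gave adjusted p of 0.0908, 0.0673 and 0.139 for the other three in the order given. That call was lost without fasted mouse 1 (-2.08, adjusted p = 0.0547), fasted mouse 2 (-1.44, 0.18) or sucrose mouse 1 (-1.10, 0.119) of that genotype. Pdk4 did not pass the test between genotypes averaged over diets (0.45, 95% interval -0.04 to 0.93), and passed it without sucrose mouse 1 of MED13-LKO (0.67, adjusted p = 0.0185 in limma).

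Creb3l3, which encodes CREBH, changed less in size but varied little between mice. Its normalized counts were 3935 and 4455 in fasted controls, 3596 and 3726 after sucrose, and 3640 and 3945 after fructose, so that the lower fasted control was below 1 of the fructose-fed ones. Those of the MED13-LKO-labelled livers were 5061 and 5139 (fasted), 4063 and 3738 (sucrose) and 3485 and 3752 (fructose), and fed and fasted mice did not overlap. In that genotype 27.8% of tested genes had both sucrose-fed mice below both fasted mice, and 27.8% had both fructose-fed mice below them. Over both genotypes the change was -0.31 (SE 0.05, adjusted p = 0.00305 in limma), to 0.809 of the fasted level. Within MED13-LKO it was -0.39 for sucrose and -0.50 for fructose (adjusted p = 0.0289 and 0.0115 in limma), and within controls -0.19 and -0.14 (adjusted p = 0.197 and 0.347).

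With 1 mouse fewer, the call for sucrose in the libraries labelled MED13-LKO was lost whichever of the 4 was left out, at -0.33 to -0.45 and adjusted p of 0.0765 to 0.206 in limma. The call for fructose was lost without fasted mouse 1 (-0.51, 0.058), fasted mouse 2 (-0.48, 0.0758) or fructose mouse 2 (-0.55, 0.0623). Genotype gave a change of 0.10 averaged over diets (95% interval -0.01 to 0.21), which did not pass the test. RefSeq (GRCm38.p6) lists a pair of start sites for Creb3l3, and the window of the inner one holds a near match to the direct repeat that PPAR alpha pairs bind, 2 letters off it, beginning 209 bases before that start. It is shown because it is the receptor's type of site, at chr10:81092788-81092800 on the minus strand, with the stretch that reads AGGTCA in capitals.
Creb3l3: aggggagAGGTCA

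**Figure D2:**
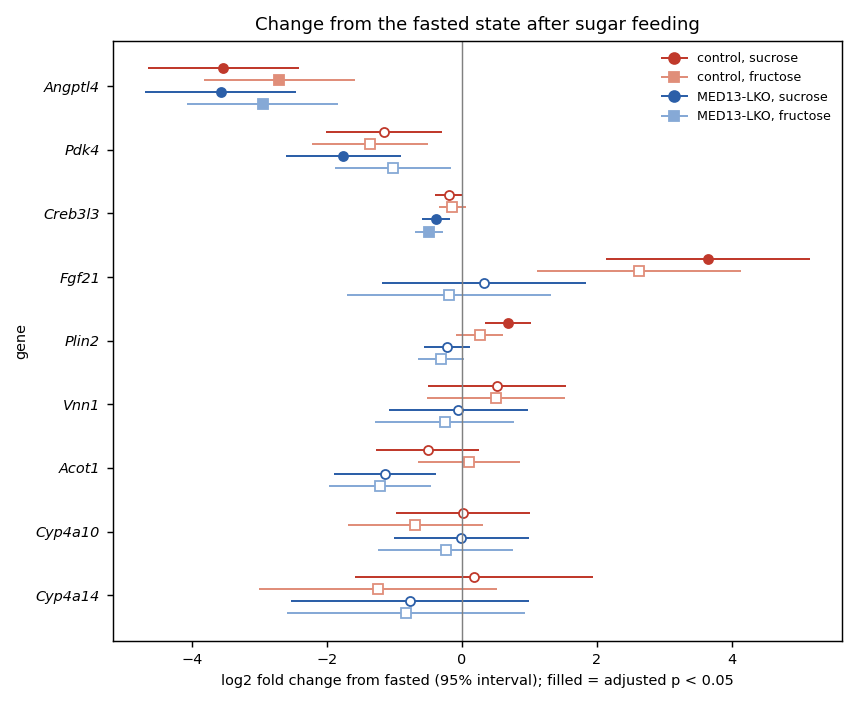
Log2 fold change of each gene from the fasted to the sugar-fed state with its 95% interval, by genotype and sugar (2 mice per group), where filled symbols mark adjusted p under 0.05. Angptl4 is filled in all 4 comparisons, from -3.58 to -2.71, and Fgf21 and Plin2 are filled in controls with sucrose only, at 3.65 and 0.69.

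Fgf21 encodes a hormone that the liver releases in fasting and also after sugar intake, and that acts through FGF receptors with the co-receptor beta-Klotho. Among controls it was lowest in the fasted state, with 1.13 and 4.82 normalized counts, against 25.1 and 73.5 after sucrose and 16.6 and 25.8 after fructose. In MED13-LKO-labelled livers it stood at 50.7 and 34.4 when fasted, 90.2 and 30.3 after sucrose, and 33.5 and 39.8 after fructose. The fasted controls therefore lay below the other 10 mice, the lowest of which had 16.6. How many tested genes show that pattern was not counted. Both mice lay above both fasted controls for 27.0% of tested genes in sucrose-fed controls and 24.3% in fructose-fed controls. The share was 28.9% in fasted livers labelled MED13-LKO.

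These are low counts. Fgf21 has a single annotated transcript and shares none of its sequence with other genes, and the fasted controls rested on 1 and 4 reads. Counted as reads, fasted libraries labelled MED13-LKO held 14.5 times as much Fgf21 as fasted controls (95% counting interval 5.98 to 45.8), control sucrose livers 16.8 times (6.96 to 53.0) and control fructose livers 7.27 times (2.86 to 23.7), and these intervals cover counting error only. On the log2 scale the fit gave 3.60 for genotype in the fasted state (SE 0.67, adjusted p = 0.0103 in limma), 3.65 for sucrose in controls (adjusted p = 0.0103) and 2.63 for fructose in controls, which missed the threshold at an adjusted p of 0.0518. With a pseudocount of 0.1 the last was 3.08 with an adjusted p of 0.0471.

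In the fed state the genotype changes of Fgf21 were 0.28 for sucrose (95% interval -1.22 to 1.78) and 0.79 for fructose (-0.71 to 2.29), and neither passed the test. Within MED13-LKO feeding changed it by 0.32 with sucrose and -0.19 with fructose, again without passing. Averaged over diets it was 1.56 higher in the libraries labelled MED13-LKO (SE 0.39, adjusted p = 0.0159 in limma), a call kept without any 1 library. The rise with feeding averaged over genotypes, 1.60 (adjusted p = 0.0207), was lost without control fasted mouse 1 (1.24, 0.0833) or fasted mouse 2 of MED13-LKO (1.47, 0.0841), and with a pseudocount of 10 (0.87, 0.0584). The genotype call in the fasted state was lost without control fasted mouse 1 (2.88, adjusted p = 0.0744 in limma) or fasted mouse 1 of MED13-LKO (3.33, 0.0681). That for sucrose in controls was lost without control fasted mouse 1 (2.92, 0.0649) or control sucrose mouse 2 (2.89, 0.0699), and when the 4 libraries were fitted alone (0.0555).

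The promoter of Fgf21 is shown because this gene was called higher after sucrose in controls and its window holds an E-box, which 7.17% of 32544 RefSeq promoter windows of 300 bases hold on either strand. The 250 bases before the start lie at chr7:45615491-45615740 (GRCm38.p6, minus strand), with CACGTG in capitals from 50 bases before the start.
Fgf21: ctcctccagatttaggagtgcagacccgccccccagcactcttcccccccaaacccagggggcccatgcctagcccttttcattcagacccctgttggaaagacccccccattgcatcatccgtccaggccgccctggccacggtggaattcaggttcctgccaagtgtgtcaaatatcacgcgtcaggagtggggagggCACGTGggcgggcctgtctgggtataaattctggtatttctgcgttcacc

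Of the proteins that receive FGF21, beta-Klotho (Klb) had a genotype change of 0.06 and a feeding change of -0.09 and did not pass either test, nor did Fgfr4 (-0.06 and 0.05). Fgfr1 was higher in the libraries labelled MED13-LKO by 1.02 (SE 0.24, adjusted p = 0.0114 in limma), and its changes with feeding did not pass. Feeding raised Fgfr3 by 0.92 and lowered Fgfr2 by 0.72 (adjusted p = 0.000439 and 0.000968 in limma), and neither passed between genotypes, at 0.05 and 0.17.

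Plin2 coats lipid droplets, and in controls it was higher after sucrose than in the fasted state. Control livers held 2367 and 2726 normalized counts when fasted, 4311 and 3872 after sucrose, and 3267 and 2828 after fructose. MED13-LKO-labelled livers held 3985 and 4249 when fasted, 3527 and 3526 after sucrose, and 2790 and 3929 after fructose. Fasted controls were lowest and fasted libraries labelled MED13-LKO were at the level of sucrose-fed controls.

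Plin2 was 0.70 higher in the fasted libraries labelled MED13-LKO than in fasted controls (SE 0.15, adjusted p = 0.0186 in limma), and sucrose raised it by 0.69 in controls (adjusted p = 0.0204). Fructose in controls (0.26), and sucrose and fructose in MED13-LKO (-0.22 and -0.31), gave changes that did not pass, nor did genotype with sucrose (-0.21) or fructose (0.12). Both calls were lost whichever 1 of their 4 mice was left out, at 0.59 to 0.80 with adjusted p of 0.0514 to 0.122 for genotype and at 0.58 to 0.79 with 0.0564 to 0.129 for sucrose. Averaged over diets the genotype change was 0.20 (adjusted p = 0.113 in limma), and it passed without fructose mouse 1 of MED13-LKO (0.28, 0.0148). Of its sequence, 5.05% is shared with other genes.

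The window of Plin2 is shown for the same E-box, here 4 bases before the start, and for a near match to the direct repeat 225 bases before it, read on the opposite strand and 2 letters off. Such a match stands in 3.875% of all windows. The 252 bases lie at chr4:86670058-86670309 (GRCm38.p6, minus strand), with both in capitals.
Plin2: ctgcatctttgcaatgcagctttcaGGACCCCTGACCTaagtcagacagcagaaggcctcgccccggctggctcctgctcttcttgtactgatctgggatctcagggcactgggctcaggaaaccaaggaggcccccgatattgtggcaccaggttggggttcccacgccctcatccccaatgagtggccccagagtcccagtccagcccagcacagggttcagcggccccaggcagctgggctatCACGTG

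RefSeq windows were matched for 5 of the 9 genes (Fgf21, Plin2, Pdk4, Creb3l3 and Acot1), as 6 windows. The search covered the direct repeat (AGGTCA, 1 base of any kind, AGGTCA), its unit AGGTCA, the E-box CACGTG and TGACGT, on both strands, and the unit lies inside the repeat. The exact repeat was in none of the 6 and in 0.0399% of all windows, TGACGT in none and in 7.55%, and AGGTCA in the windows of Creb3l3 and Plin2 and in 16.25% of all. These matches describe letters in the windows and were not tested for binding.

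Acot1 encodes a thioesterase that splits long-chain acyl-CoA in the cytosol, and of the 9 genes it alone separated all libraries by genotype. The controls held 282 and 375 normalized counts when fasted, 155 and 334 after sucrose, and 301 and 405 after fructose. Those labelled MED13-LKO held 1857 and 2477 when fasted, 1167 and 804 after sucrose, and 1023 and 828 after fructose. The lowest of the latter 6, 804, was well above the highest control, 405, a separation without overlap that 3.92% of tested genes showed in that direction and no other of the 9 did.

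The difference was 2.72 when fasted (SE 0.33, 6.58-fold, adjusted p = 0.00128 in limma), 2.08 with sucrose (4.24-fold, adjusted p = 0.00699) and 1.39 with fructose (2.63-fold, adjusted p = 0.0333). Averaged over diets it was 2.07 (SE 0.19, adjusted p = 6.36e-05 in limma), a call kept without any 1 library at 1.88 to 2.25. The sucrose call was lost without sucrose mouse 1 of MED13-LKO (1.81, adjusted p = 0.0795), and the fructose call without control fructose mouse 1 (1.18, 0.146) or either fructose mouse of MED13-LKO (1.24 and 1.55, 0.15 and 0.106). Feeding lowered Acot1 by 0.69 averaged over genotypes (adjusted p = 0.0371 in limma), but this was lost on leaving out 1 library in 7 of 12 cases, at adjusted p of 0.0546 to 0.143 (either fasted mouse of each genotype, control fructose mouse 1, and sucrose mouse 2 or fructose mouse 2 of MED13-LKO).

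Within MED13-LKO feeding changed Acot1 by -1.15 with sucrose and -1.22 with fructose, with fasted and fed mice apart, but with adjusted p of 0.0798 and 0.0586 in limma over all groups. Fed mice lay below fasted mice in this way for 27.8% of tested genes with sucrose and 27.8% with fructose. When the 4 libraries were fitted alone, both changes passed (adjusted p = 0.0276 and 0.0231). Within controls the changes were -0.51 with sucrose and 0.10 with fructose, and neither passed (adjusted p = 0.381 and 0.889 in limma). Acot1 shares 22.7% of its sequence with other genes, mostly Acot2, so reads from the shared stretches may be split among them. Acot2, which encodes a mitochondrial relative, was higher as well in every library labelled MED13-LKO (154 to 313, against 34.1 to 64.1 in controls), by 1.91 (adjusted p = 5.7e-05 in limma).

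Vnn1 encodes pantetheinase, an enzyme of coenzyme A breakdown on the cell surface. Fasted controls had 503 and 794 normalized counts, sucrose-fed controls 527 and 1554, and fructose-fed controls 661 and 1214. The fasted livers labelled MED13-LKO had 1673 and 2203, the sucrose-fed ones 2020 and 1693, and the fructose-fed ones 1849 and 1389. In each diet both lay above both controls, although across diets the highest control exceeded the lowest of the MED13-LKO libraries. Of the 12366 tested genes, 3578 showed such a separation in that direction when fasted, 3210 with sucrose and 3087 with fructose. How many did so in every diet was not counted. Averaged over diets Vnn1 was 1.16 higher (SE 0.26, 2.23-fold, adjusted p = 0.00986 in limma), a call kept without any 1 library.

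By diet the genotype changes of Vnn1 were 1.60 when fasted, 1.03 with sucrose and 0.84 with fructose, with adjusted p of 0.0566, 0.226 and 0.305 in limma. The first passed when the 4 libraries were fitted alone (0.0223), and the second without control sucrose mouse 2 (1.81, 0.045). Feeding changed Vnn1 by -0.26 to 0.52 over the 4 comparisons, and none passed. None of its sequence was shared with other genes.

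Cyp4a10 and Cyp4a14 encode fatty acid omega-hydroxylases of the endoplasmic reticulum and lie next to each other on chromosome 4. Cyp4a10 had 10911 and 14350 normalized counts in fasted controls, 9631 and 16655 after sucrose, and 4863 and 12345 after fructose. Livers labelled MED13-LKO had 16489 and 21837 of it fasted, 20688 and 17180 after sucrose, and 22537 and 11382 after fructose. The groups did not overlap when fasted or with sucrose and overlapped with fructose. Such a separation in that direction was shown by 28.9% of tested genes when fasted and by 26.0% with sucrose. The change averaged over diets was 0.74 (95% interval 0.17 to 1.31, adjusted p = 0.0578 in limma), just short of the threshold.

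That average passed the threshold when some single libraries were left out. Without control fructose mouse 2 it was 0.96 (adjusted p = 0.00859 in limma), without fructose mouse 2 of MED13-LKO 0.90 (0.0339), and without control sucrose mouse 2 0.87 (0.0496), each past the threshold. By diet the changes were 0.60, 0.57 and 1.05, none called, and the last was 1.72 (adjusted p = 0.0323) without control fructose mouse 2. Cyp4a10 shares 44.9% of its sequence with other genes, chiefly Cyp4a32 and Cyp4a31, so reads may be split among them. Cyp4a31 was higher in every library labelled MED13-LKO (571 to 1459, against 79.2 to 221), by 2.60 (adjusted p = 0.000131 in limma), and Cyp4a32 by 0.90 (adjusted p = 0.000533).

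Cyp4a14 differed most between mice of a group. Fasted controls had 24544 and 29558 normalized counts, sucrose-fed controls 23382 and 39370, and fructose-fed controls 4212 and 30743. For MED13-LKO the values were 31239 and 48246 fasted, 26961 and 19013 after sucrose, and 38650 and 12349 after fructose. It passed no test, with 0.35 for genotype averaged over diets (95% interval -0.66 to 1.36) and -1.24 for fructose in controls (-2.99 to 0.51). The second turned to 0.19 without control fructose mouse 1, and was -2.68 (adjusted p = 0.0235 in limma) without control fructose mouse 2. The genotype change with fructose, 0.94, turned to -0.49 and to 2.37 (adjusted p = 0.0347) on the same omissions, and the average over diets to -0.13 without control fructose mouse 1.

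**Figure D3:**
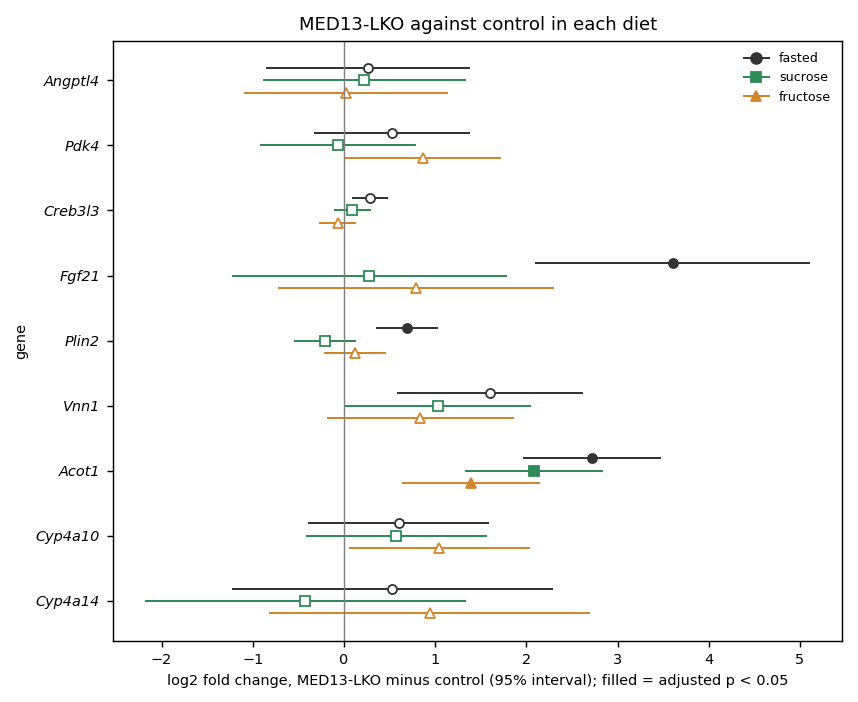
Log2 fold change between libraries labelled MED13-LKO and controls in each diet with its 95% interval (2 mice per group), where filled symbols mark adjusted p under 0.05. Acot1 is filled in all 3 diets, at 2.72, 2.08 and 1.39, and Fgf21 and Plin2 are filled when fasted only, at 3.60 and 0.70.

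By diet, the counts of the 9 genes called between genotypes were 3 when fasted (Acot1, Fgf21 and Plin2), 1 with sucrose and 1 with fructose (Acot1 in both). These stood against 8.98%, 6.03% and 7.69% of all tested genes. In the fasted state both libraries labelled MED13-LKO lay above both controls for 7 of the 9, all but Angptl4 and Pdk4, where 28.9% of tested genes did so. The median change of the 9 was 0.60 when fasted, 0.22 with sucrose and 0.84 with fructose, beside 0.01, 0 and -0.00032 over all tested genes. With feeding, 3 of 9 were called with sucrose and 1 with fructose in controls (8.57% and 5.6% of all genes), and 3 and 2 in the libraries labelled MED13-LKO (5.71% and 6.53%).

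Whether feeding acted differently in the genotypes was tested as an interaction. None of the 9 passed with the sugars pooled, with sucrose or with fructose, where 0.0404%, 0.146% and 0.0243% of all tested genes did. At an unadjusted p under 0.05 the counts were 4, 2 and 4 of the 9, beside 9.49%, 8.53% and 9.46% of all tested genes. With the sugars pooled the 4 were Fgf21 (-3.07, SE 0.82), Plin2 (-0.74, SE 0.18), Acot1 (-0.98, SE 0.41) and Creb3l3 (-0.27, SE 0.10), with adjusted p of 0.281, 0.242, 0.487 and 0.439 in limma. Each value is the change with feeding in the libraries labelled MED13-LKO minus that in controls. A difference in response between genotypes was therefore not shown for any of the 9, although fasted Fgf21 and Plin2 differed by genotype and fed values did not pass.

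No difference between the sugars passed. Between fructose and sucrose none of the 9 passed in limma, where 0.0404% of tested genes did in each genotype, and at an unadjusted p under 0.05 there was 1 in controls (Plin2, -0.43, 95% interval -0.75 to -0.10) and none in the libraries labelled MED13-LKO, beside 8.58% and 7.69% of all tested genes. The intervals are wide for most of the genes, as for Fgf21 in controls (-1.02, -2.52 to 0.47) and Cyp4a14 in controls (-1.41, -3.16 to 0.33).

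Mice of the same group differed in Angptl4, Vnn1, Acot1, Cyp4a10 and Cyp4a14 together. In each of the 6 groups the mouse with the higher value was the same one for all 5 genes, a set singled out after the values were seen, and 2.56% of all tested genes had the same order of mice as Cyp4a14 in all 6 groups. For Cyp4a14, Angptl4 and Cyp4a10 the widest gap was in controls with fructose, where mouse 2 had 7.3 times the Cyp4a14 of mouse 1, 2.93 times the Angptl4 and 2.54 times the Cyp4a10. For Vnn1 and Acot1 it was in controls with sucrose, where mouse 2 had 2.95 and 2.16 times the level of mouse 1. In the fructose livers labelled MED13-LKO mouse 1 was the higher one, with 3.13 times the Cyp4a14 and 1.98 times the Cyp4a10. Over the 12 libraries, after group means were removed, the correlation between Cyp4a10 and Cyp4a14 was 0.964 and that between Vnn1 and Acot1 0.955, given as a description over points that share libraries and depth. With 2 mice per group the values left are mirror images, so each such correlation rests on 1 difference in each of 6 groups. The higher mouse was the same as for Cyp4a14 in 5 of 6 groups for Creb3l3, in 4 for Fgf21 and in 3 each for Pdk4 and Plin2, with correlations to Cyp4a14 of 0.33, 0.35, -0.04 and -0.67. Fgf21 was closest to Creb3l3, Acot1 and Vnn1 (0.81, 0.76 and 0.71).

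**Figure D4:**
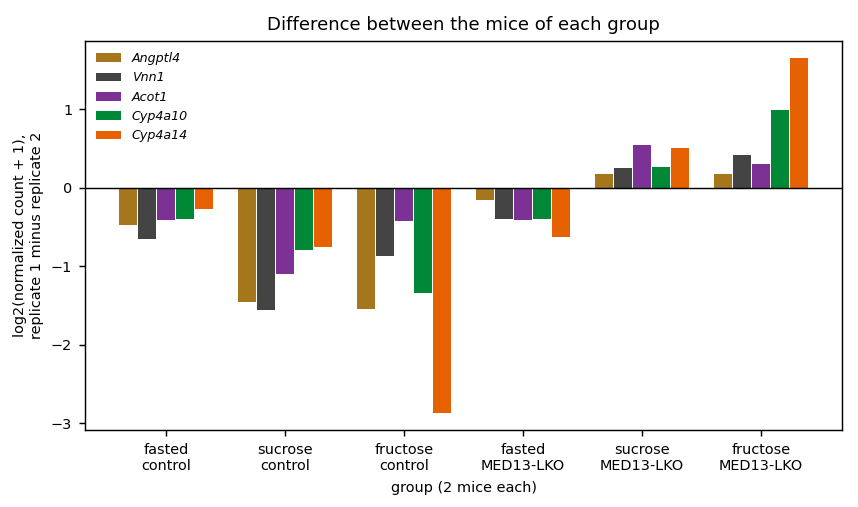
Difference in log2(normalized count + 1) between replicate 1 and replicate 2 of each group (2 mice each) for 5 genes, where a bar is 1 gene in 1 group. All 5 bars of a group point the same way, down in 4 groups and up in the sucrose and fructose livers labelled MED13-LKO, and the longest is Cyp4a14 in controls with fructose at -2.87.

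Control fructose mouse 1, the library with adipocyte markers, had the lowest value of all 12 libraries for Cyp4a10 and Cyp4a14 among the 9 genes, and for 6 of the 19 tested peroxisomal and microsomal targets, where 10.5% of all tested genes were lowest there. Control sucrose mouse 1 was likewise lowest for Acot1 and Angptl4 and for 7 of the same 19 targets, where 6.91% of all tested genes were. Control fasted mouse 1 was lowest for 3 of the 9 genes, the most of any library, namely Fgf21, Plin2 and Vnn1. It was lowest for 1 of the 19 targets and for 9.84% of all tested genes. In control fructose mouse 1 Ppara, the receptor's own gene, was also lowest, at 1255 against 1615 to 2847 in the other 11 libraries. Without this library the counts of the 9 genes called were 0 for fructose against fasted in controls and 0 for genotype with fructose, with 280 in place of 692 and 610 in place of 951 over all genes. The first count was also 0 without control fasted mouse 2, and the second without either fructose mouse of MED13-LKO. The part of adipose tissue in these values was not tested.

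Other genes of the pathway were taken from lists by role, chosen with earlier results of these data known. Their counts stand beside 12.1% of all tested genes called higher and 13.2% called lower between genotypes. With feeding those shares were 10.7% and 11.0%. Ppara did not pass between genotypes (0.13) or with feeding (-0.35, adjusted p = 0.115 in limma). Of 12 genes for the receptor and its partners, 5 were called lower after feeding and none higher, namely Lpin1 (-1.56), Ppargc1a (-1.10), Ppargc1b (-0.91), Sirt1 (-0.79) and Rxra (-0.25). Lpin1 and Ppargc1a are coactivators of PPAR alpha, and Rxra encodes a partner receptor. Between genotypes 2 were called higher, Ppargc1a (0.47) and Ppard (0.37), and 4 lower, Lpin1 (-0.87), Pparg (-0.61), Rxra (-0.33) and Med1 (-0.22), while Ppargc1b (-0.31), Ncoa1 (0.23), Fabp1 (0.20), Ncor1 (0.08) and Sirt1 (0.02) did not pass.

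Of 19 tested genes of peroxisomal oxidation and microsomal hydroxylation, 10 were called higher in the libraries labelled MED13-LKO and 1 lower, where 12.1% and 13.2% of all tested genes were. The median change was 0.31 over the list and 0.01 over all genes. The largest were Cyp4a31, Abcd2 (1.48), Crat (1.02), Acot3 (0.97) and Cyp4a32, of which Abcd2 carries very long-chain fatty acids into peroxisomes and Crat moves acetyl groups to carnitine. The one lower gene was Abcd3 (-0.53), a peroxisomal transporter. With feeding, 2 of the 19 were called, both lower, Pex11a (-0.66) and Eci2 (-0.62), where 11.0% of all tested genes were called lower.

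For mitochondrial oxidation and ketogenesis, 6 of 19 were called higher in the libraries labelled MED13-LKO and none lower, beside 12.1% and 13.2% of all tested genes. The 6 were led by Acot2, the carnitine transporter Slc22a5 (0.49), Acadl (0.41), Decr1 (0.33) and Hadha (0.24). Feeding lowered 2, Slc22a5 (-0.76) and Cpt1a (-0.61), the gate for fatty acids into mitochondria. Over all tested genes, 11.0% were called lower and 10.7% higher with feeding. Of 17 genes of lipid uptake, storage and lipolysis, 8 were called higher and 1 lower between genotypes, with a median of 0.51. Cd36, a fatty acid transporter, had the largest change of those called, with 5160 to 6843 normalized counts against 707 to 1236 in controls (2.62, SE 0.12, adjusted p = 7.53e-07 in limma). G0s2 (1.70), Vldlr (1.03) and Lpl (0.76) followed, with Fabp2 (0.55). With feeding 3 of the 17 rose, G0s2 (1.30), Gpd1 (0.76) and Mgll (0.54), and 3 fell, Plin5 (-0.89), Pnpla2 (-0.84) and Slc27a2 (-0.47).

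CREBH targets went both ways, beside shares over all tested genes of 12.1% higher and 13.2% lower between genotypes and 10.7% and 11.0% with feeding. Of 15, 4 were called higher in the libraries labelled MED13-LKO, namely the iron hormone Hamp (1.41), Apoc2 (0.96), Lpl and G6pc (0.51), and 3 lower, Apoc3 (-1.08), Apoa1 (-0.36) and Apcs (-0.28). After feeding 5 were called lower, Pck1 (-2.88), Cpt1a, G6pc (-0.59), Insig2 (-0.59) and Crp (-0.28), and 1 higher, Hamp (1.18). The genes listed as other fasting-induced genes mostly fell with feeding, with 16 of 20 called lower and none higher, a median of -1.24. They were led by Igfbp1 (-4.43), Pck1, Ddit4 (-2.87), Cdkn1a (-2.23) and Irs2 (-2.19). Between genotypes that list was split, with 7 called higher and 4 lower, among them Asns (-2.50), Cdkn1a (1.88), Lcn2 (1.37), Gadd45b (1.34) and Igfbp1 (-1.32).

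**Figure D5:**
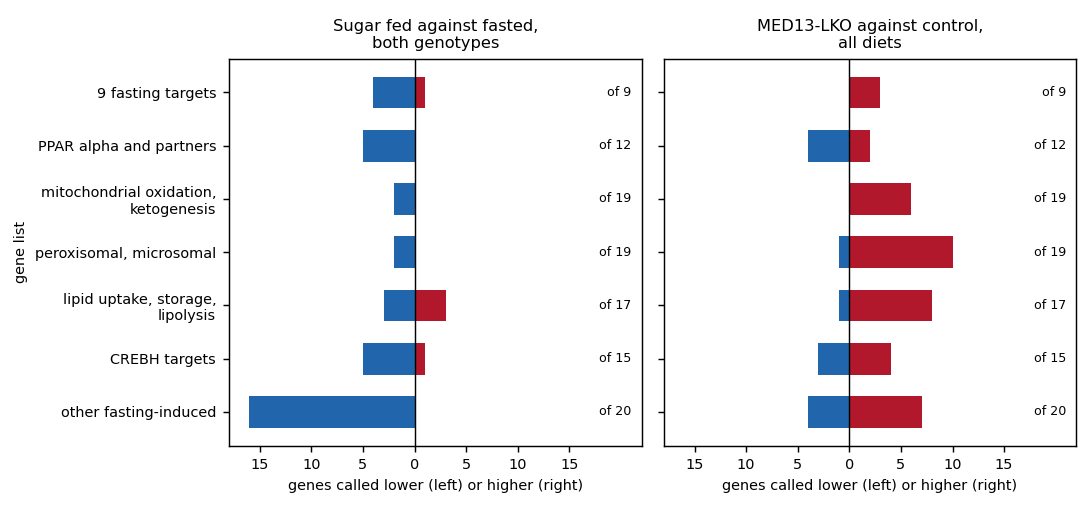
Number of genes called lower (left) or higher (right) in each list, for sugar feeding averaged over genotypes and for MED13-LKO against control averaged over diets, with the number tested at the right of each row. Other fasting-induced genes were called lower after feeding in 16 of 20, and peroxisomal and microsomal targets were called higher between genotypes in 10 of 19. Over all tested genes those shares were 11.0% and 12.1%.

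Relatives of the 9 genes were also counted, and several of them, such as Acot2 and Cyp4a31, are in the lists above too. Of all tested genes, 12.1% were called higher and 13.2% lower between genotypes, and 10.7% and 11.0% with feeding. Of 22 tested paralogs, 10 were called higher and 1 lower between genotypes, led by Acot6 (2.71), Cyp4a31, Acot2, Acot3 and Cyp4a32. With feeding 1 was called higher, Angptl8 (3.61), which encodes a fed-state partner of the ANGPTL proteins, and 3 lower, Plin5, Creb3l2 (-0.40) and Pdk2 (-0.38). Angptl8 ran opposite to Angptl4, with 264 to 549 normalized counts in the 4 fasted mice and 2589 to 5360 in the 8 fed mice.

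The genes most like each of the 9 in their pattern over the 12 libraries were ranked by Pearson correlation of log2 values, as a description over libraries that share groups. For Angptl4 they were Lgals4 (0.986), Pim3 (0.98) and Efhd2 (0.974), for Pdk4 Erlec1 (0.934), Npc2 (0.933) and Nipbl (0.912), and for Creb3l3 Sertad2 (0.957) and Tmem56 (0.947). For Fgf21 they were Zfp157 (0.916), Kdm5c (0.906) and Ddx17 (0.899), and for Plin2 Rab6b (0.88), Sdha (0.846) and Zc4h2 (0.843). Nearest to Acot1 were Bace1 (0.96), Hsdl2 (0.959) and Acadl (0.959), to Vnn1 Hadha (0.934), Crat (0.934) and Abhd6 (0.924), and to Cyp4a10 Acadm (0.953), Cyp2c38 (0.932) and Dnah11 (0.931). Cyp4a14 was nearest to Cyp2c38 (0.918), Mxi1 (0.904) and Gsta2 (0.9).

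The genes lie apart in the genome, apart from the pair of P450 genes. In GRCm38 coordinates of GENCODE M21, Fgf21 spans chr7:45613886-45615490, Angptl4 chr17:33773750-33781830, Pdk4 chr6:5483351-5496309, Plin2 chr4:86648386-86670060 and Creb3l3 chr10:81084324-81098874, all on the minus strand. Vnn1 spans chr10:23894688-23905343, Acot1 chr12:84009490-84018371 and Cyp4a10 chr4:115518264-115533649 on the plus strand, and Cyp4a14 spans chr4:115486200-115496142 on the minus strand. All 9 are annotated as protein coding, and the counts are per gene, estimated from its annotated transcripts.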

How the data were processed

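Liver RNA from 12 mice was sequenced, and groups came from the sample titles. The signal values used here, normalized counts for 16346 genes, were deposited by the authors after trimming (Trim Galore 0.6.5), transcript-level estimation (kallisto 0.46.0) and normalization (DESeq2 1.24.0), with mm10 named in the submitters' processing notes. Because low values over all genes were not whole reads (51.2% to 58.9% within 0.05 of a whole number), no count test was run. Single-transcript genes were used to estimate depth.

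From the deposited values, 1 model with the 6 groups was fitted to log2(normalized count + 1) in limma 3.58.1 (R 4.3.3) with moderation following the mean, over 12366 genes with a mean of at least 10. The pseudocount understates changes of low genes. No source says the mice are littermates, and p-values measure the spread between these mice. Sequence sharing is the percent of 31-base stretches found in another gene of GENCODE M21, where 16212 identifiers had a symbol. Promoter windows (250 bases before to 50 after a start) come from RefSeq. The fit was tested on simulated data. Python 3.11.15, NumPy 2.4.6 and matplotlib 3.10.9 were used.

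The members and lists were chosen with earlier results of these data known. In each list up to 5 called genes with the largest change are named, with every gene of the receptor lists, and 3 nearest genes per member, less 1 without a symbol. Alternatives were pseudocounts of 0.1 and 10, no filter, equal 75th percentiles, a replicate block, fits of the compared groups alone, and each library left out. Over the 15 pairs of groups, deviations of same-numbered mice correlated at -0.142 to 0.0782, so the numbers were not taken as pairs. Protein sequences were not used here.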

Additional observations from a re-analysis of the deposited data

How the results depend on the processing

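The values of the 9 genes in the 14 comparisons were refitted under each alternative. Of 738 such values under settings that kept every library or fitted the compared groups alone, 723 kept their direction and side of the threshold, 9 passed it newly, 4 lost it and 2 turned sign. The latter were of Cyp4a10 with equal 75th percentiles, at 0.036 for sucrose against fasted in MED13-LKO and 0.009 for the interaction with sucrose. Of 792 values with 1 library left out, 676 kept both, 10 passed newly, 40 lost the call and 66 turned sign. For fructose against fasted in controls, the genes called were 2 in place of 1 with a pseudocount of 0.1 and with equal 75th percentiles, and 0 with only the compared groups. Over all genes, fructose against sucrose in controls gave 12, 3, 8 and 0 in place of 5 with a pseudocount of 0.1, with 10, without the filter and with the compared groups alone, and in MED13-LKO 8 with a pseudocount of 10. The interaction with fructose gave 0, 7 and 1 in place of 3 with a pseudocount of 10, without the filter and with the compared groups alone, and that with sucrose 8 in place of 18 with the last. The compared groups alone also gave 698 in place of 1060 genes for sucrose and 27 in place of 692 for fructose against fasted in controls, 414 in place of 807 for fructose in MED13-LKO, and 163 in place of 951 for genotype with fructose, from fewer samples for the spread.

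With the replicate number as a block, 2 in place of 1 of the genes were called for fructose against fasted in controls, and over all genes 7 in place of 18 for the interaction with sucrose, 1 in place of 3 with fructose, 3 in place of 5 with the sugars pooled, and 3 in place of 5 for fructose against sucrose in each genotype. Under the block Pdk4 passed in controls after either sugar (limma adjusted p = 0.0481 for sucrose and 0.0376 for fructose), and Vnn1 between genotypes when fasted (0.0427), and no other call of the 9 genes changed. With the numbers of 1 group crossed, chosen after seeing the data because the fructose groups correlated at -0.142, genotype with fructose gave 1 of the 9 genes and 863 over all.

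With 1 library left out, the genes of the 9 called were 0 to 2 in place of 1 for fructose against fasted in controls, 0 to 2 in place of 2 for fructose against fasted in MED13-LKO, 3 to 4 in place of 3 for genotype averaged over diets, 1 to 2 in place of 3 for genotype when fasted, 0 to 3 in place of 1 for genotype with fructose, 0 to 2 in place of 1 for genotype with sucrose, 1 to 2 in place of 3 for sucrose against fasted in controls, 1 to 2 in place of 3 for sucrose against fasted in MED13-LKO, 3 to 6 in place of 5 for feeding averaged over genotypes. The counts for the interactions and fructose against sucrose stayed at 0. Over all genes the counts were 128 to 976 in place of 692 for fructose against fasted in controls, 65 to 680 in place of 807 for fructose against fasted in MED13-LKO, 8 to 73 in place of 5 for fructose against sucrose in controls, 0 to 9 in place of 5 for fructose against sucrose in MED13-LKO, 0 to 47 in place of 3 for the interaction with fructose, 2 to 28 in place of 18 for the interaction with sucrose, 0 to 17 in place of 5 for the interaction with sugars pooled, 2319 to 3253 in place of 3127 for genotype averaged over diets, 382 to 515 in place of 1110 for genotype when fasted, 328 to 1056 in place of 951 for genotype with fructose, 149 to 361 in place of 746 for genotype with sucrose, 329 to 512 in place of 1060 for sucrose against fasted in controls, 144 to 289 in place of 706 for sucrose against fasted in MED13-LKO, 1556 to 2960 in place of 2691 for feeding averaged over genotypes.

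Of the 126 values, 40 took both signs as 1 library was left out, and none of the 40 was called with all libraries. Their ranges on the log2 scale were as follows. For sucrose against fasted in controls they were Acot1 (-1.06 to 0.040), Cyp4a10 (-0.38 to 0.41), Cyp4a14 (-0.20 to 0.55) and Vnn1 (-0.26 to 1.30). For fructose against fasted in controls they were Acot1 (-0.11 to 0.32) and Cyp4a14 (-2.68 to 0.19). For sucrose against fasted in MED13-LKO they were Cyp4a10 (-0.21 to 0.19), Fgf21 (-0.45 to 1.09) and Vnn1 (-0.25 to 0.14). For fructose against fasted in MED13-LKO they were Cyp4a10 (-0.74 to 0.25) and Fgf21 (-0.46 to 0.083). For feeding averaged over genotypes it was Vnn1 (-0.018 to 0.37). Between genotypes with sucrose they were Angptl4 (-0.50 to 0.95), Fgf21 (-0.49 to 1.05) and Pdk4 (-0.72 to 0.60). Between genotypes with fructose they were Angptl4 (-0.75 to 0.80), Cyp4a14 (-0.49 to 2.37) and Plin2 (-0.12 to 0.37). Between genotypes over all diets they were Angptl4 (-0.089 to 0.43) and Cyp4a14 (-0.13 to 0.83). For the interaction with sucrose they were Angptl4 (-0.76 to 0.69), Cyp4a10 (-0.42 to 0.37), Pdk4 (-1.26 to 0.068) and Vnn1 (-1.35 to 0.21). For the interaction with fructose they were Angptl4 (-1.01 to 0.53), Cyp4a10 (-0.23 to 1.12) and Cyp4a14 (-1.02 to 1.85). For the interaction with sugars pooled they were Angptl4 (-0.53 to 0.25), Cyp4a10 (-0.13 to 0.55), Cyp4a14 (-0.98 to 0.45) and Pdk4 (-0.46 to 0.20). For fructose against sucrose in controls they were Creb3l3 (-0.0079 to 0.11), Cyp4a14 (-2.85 to 0.019) and Vnn1 (-0.79 to 0.76). For fructose against sucrose in MED13-LKO they were Acot1 (-0.34 to 0.20), Cyp4a10 (-0.73 to 0.26), Cyp4a14 (-0.87 to 0.77), Fgf21 (-1.28 to 0.26), Plin2 (-0.34 to 0.16) and Vnn1 (-0.41 to 0.00027).

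With 2 mice per group, most calls within 1 diet were lost when 1 or another library was left out. Such an omission leaves 1 mouse in its group, so a lost call does not single out that library. Precision for Fgf21 in fasted controls was limited by 1 and 4 reads.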
